A study of Homo sapiens with 6 samples.

Results

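The transcription factors and adhesion molecules of the epithelial-mesenchymal transition were followed in WM-266.4 cells, a human line grown from a melanoma metastasis, in which PIR was knocked down. The 10 genes were taken by name, in a list drawn up with earlier results of these data known, and no threshold on their values was used: SNAI1, SNAI2, TWIST1, ZEB1, ZEB2, CDH1, CDH2, CDH3, CDH11 and VIM, out of 19775 genes with a probe set of their own. Every probe set annotated to them was used, 23 in all out of 54675 on the array, and 0 of the 23 was annotated to a further gene. For siPIR the cells were transfected with 4 mixed duplexes against PIR, for siCTR with 4 mixed non-targeting duplexes, and for NO with Oligofectamine alone. The siRNA dose was 200 pmol in serum-free medium, and the labels name a siGENOME product for siPIR and an on-target plus product for siCTR. All were harvested 72 h later, equal amounts of RNA from 3 extractions were mixed for each group, and each mixture was put on 2 arrays of the Affymetrix HG-U133 Plus 2 type. A group is thus 1 RNA pool of 1 cell line. The spread between its 2 arrays is hybridisation error, no replicate check of the knock-down exists for any difference below, and no test of the conditions was made.

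The epithelial-mesenchymal transition is the change by which a cell gives up tight epithelial contacts and takes on a motile form. SNAI1, SNAI2, ZEB1 and ZEB2 are zinc finger repressors and TWIST1 is a basic helix-loop-helix factor. They bind E-box sequences, among them those of CDH1, the gene of E-cadherin, through which melanocytes hold on to keratinocytes. Melanoma cells often exchange E-cadherin for N-cadherin (CDH2), and SNAI2 and ZEB2 are known from the normal melanocyte lineage, whereas ZEB1 and TWIST1 are known from dedifferentiated melanoma. Pirin has been linked to SNAI2 and migration in melanoma cells, which gives the comparison its interest.

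No probe set of the 10 genes met the call of a 2-fold difference against both control pools. The cells had N-cadherin, vimentin, SNAI2, ZEB1 and ZEB2 signal well within the upper range of the arrays in all 3 pools, and E-cadherin and P-cadherin signal below the median of all values in all 3. Within that setting the siPIR pool had slightly less SNAI2 than either control on the 1 probe set of that gene. It had slightly more N-cadherin on each of the 2 CDH2 probe sets, and all these differences were below 1.5-fold. The bright vimentin probe set was likewise higher than either control, while the dim one lay below NO. Of all bright probe sets, 33.4% were higher and 28.8% lower than both controls without overlap, so such differences are common on these arrays. All 4 ZEB1 probe sets had a lower mean in siPIR than in siCTR, 1 of them without overlap of the arrays, and against NO 1 of the 4 had a slightly higher mean. That 1 probe set without overlap was bright, and 75.1% of all bright probe sets differed from siCTR without overlap, in either direction. The ZEB2 probe sets pointed both ways, as did those of CDH11 against siCTR.

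Signals are scaled intensities, and probe sets differ in how strongly they bind, so levels were compared between pools and not between genes. A probe set was measured when at least 1 pool mean exceeded 70.2, the median of all values, and bright when 1 exceeded 458.4, the 75th percentile; other measured probe sets are called dim. Of the 23, 8 were bright, 8 were dim and 7 were below the limit. The bright ones belonged to 5 genes (SNAI2, ZEB1, ZEB2, CDH2 and VIM), SNAI1 and TWIST1 had dim probe sets only, and CDH1 and CDH3 had none that was measured. CDH11 had 1 measured probe set of 4. Differences are of log2(signal + 5.4), siPIR minus control, with the range over the 4 pairs of arrays in brackets. This scale understates the change of dim probe sets. A call needed a difference of at least 1 in size (2-fold) and no overlap between the arrays of the 2 pools.

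**Figure D1:**
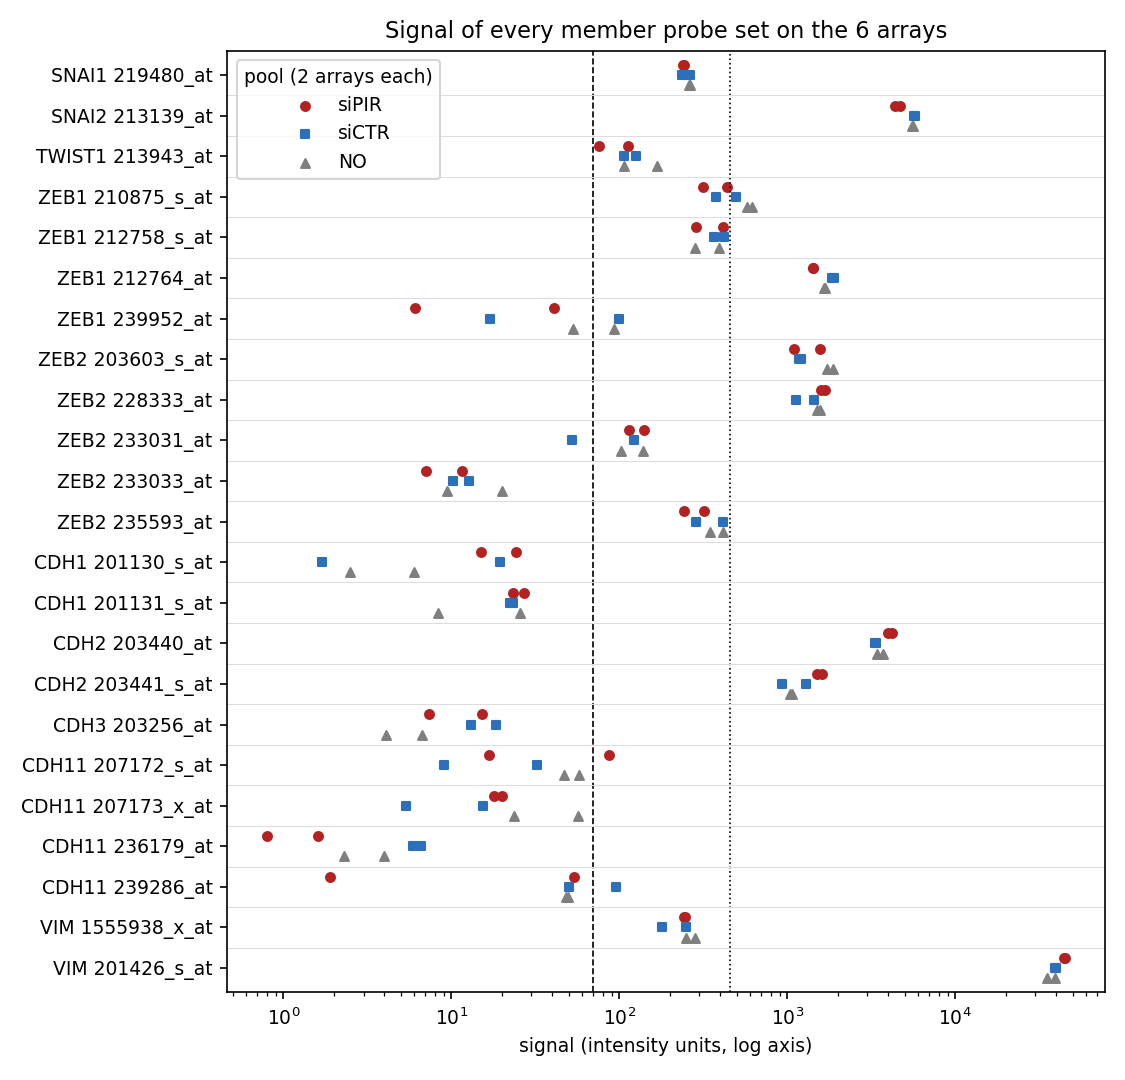
Signal (intensity units, log axis) of all 23 probe sets on the 6 arrays, with siPIR as circles, siCTR as squares and NO as triangles. The dashed line is the limit of 70.2 and the dotted line that of 458.4; the CDH1 and CDH3 points all lie left of the dashed line, and those of CDH2 lie right of the dotted line.

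PIR, the targeted gene, had signals of 392.3 and 381.5 in siPIR, 13544 and 13180 in siCTR, and 13990 and 14153 in NO (34.1-fold and 35.9-fold lower). All 10 melanoma and melanocyte markers with a probe set, MITF, SOX10, PMEL, MLANA and TYR among them, were bright, and 0 of them was called. Across bright probe sets the duplicate arrays had a Pearson r of 0.992 (siPIR), 0.993 (siCTR) and 0.993 (NO), whereas arrays of siPIR and of a control pool reached 0.943 at most and arrays of siCTR and NO 0.985 at most. The 3' to 5' signal ratio of ACTB was 1.13 on the siPIR arrays and 1.23 to 1.27 on the others.

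The number of calls among the members is read against the whole array. Against siCTR 4.07% of 29633 measured probe sets were called higher and 3.98% lower. Against NO 3.53% were called higher and 5.95% lower, and against both controls 1.49% were called higher and 2.99% lower. Of the 16 measured member probe sets, 0 was called against siCTR, 1 was called lower against NO (a dim one of ZEB1, given below) and 0 was called against both. The median of their differences from siCTR was -0.11 and from NO -0.17, where that of all measured probe sets was 0.05 and -0.01. The median size of their differences, 0.30 and 0.28, was also near that of all measured probe sets, 0.31 and 0.35. The 8 bright member probe sets alone had medians of 0.17 and -0.06, so the sign against siCTR differed from that of all 16. All bright probe sets had medians of 0.03 and 0.03. The 2 comparisons share the siPIR arrays.

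Smaller differences were described by whether the arrays of the pools overlapped, a rule added after the values were seen. Of the 8 bright member probe sets, 4 were higher and 2 lower than siCTR without overlap, beside 40.4% and 34.8% of all 14809 bright probe sets. Against NO it was 4 higher and 4 lower, beside 42.2% and 37.0%. Against both controls it was 4 higher and 2 lower, beside 33.4% and 28.8%, so a lack of overlap is common on these arrays and does not set the members apart.

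**Figure D2:**
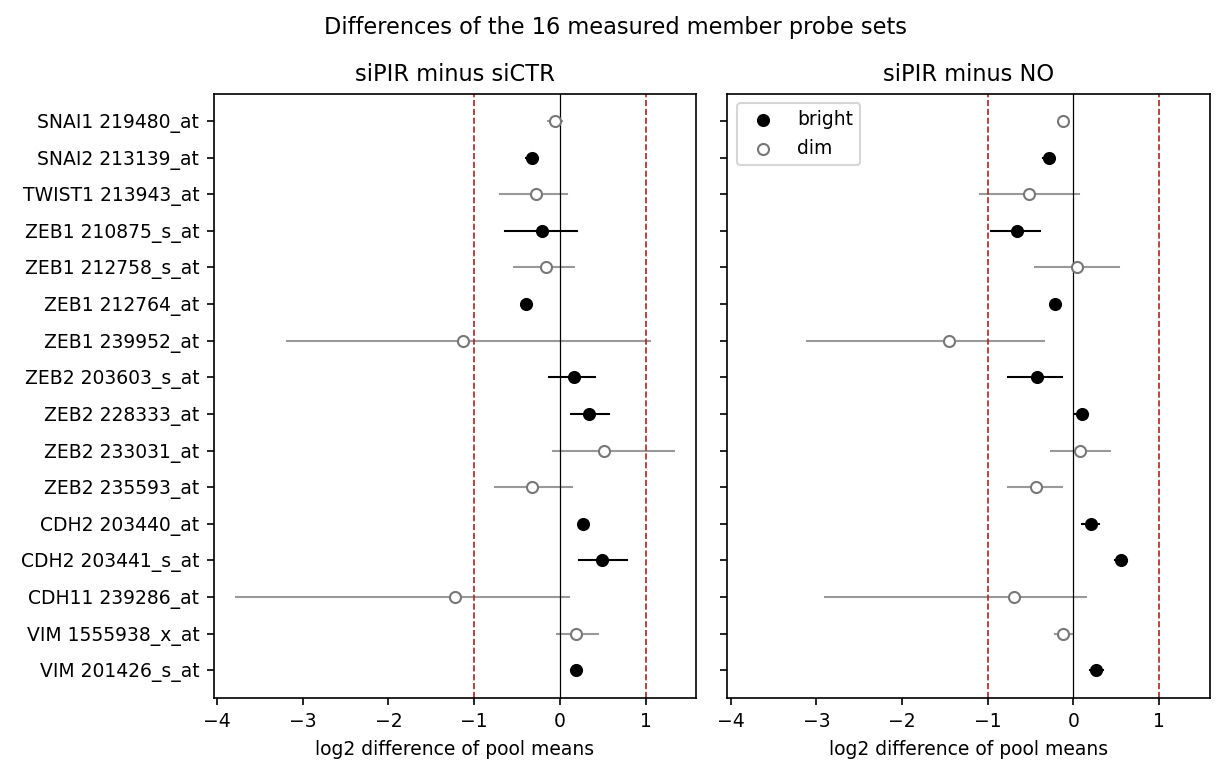
Log2 difference of pool means for the 16 measured member probe sets, siPIR minus siCTR on the left and siPIR minus NO on the right. Bars span the 4 pairs of arrays, filled points are bright, open points dim, and dashed lines mark 2-fold; the filled points all lie between the dashed lines, and the open points of ZEB1 239952_at and CDH11 239286_at have the long bars.

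Promoter windows in RefSeq (GRCh38.p14) were found for 4 of the 10 genes, and they are shown because E-boxes are the sites that the SNAI and ZEB repressors bind and because these 4 genes are bright here. The 250 bases before the start site are given, with CAGGTG or its reverse complement CACCTG in capitals; a search for both covers both strands. ZEB1 has 7 listed starts, and CDH2 has 2; the first listed is shown. ZEB1 lies at chr10:31318167-31318416 (plus strand). ZEB2 lies at chr2:144520120-144520369 (minus strand), CDH2 at chr18:28177131-28177380 (minus strand) and VIM at chr10:17227991-17228240 (plus strand).
ZEB1: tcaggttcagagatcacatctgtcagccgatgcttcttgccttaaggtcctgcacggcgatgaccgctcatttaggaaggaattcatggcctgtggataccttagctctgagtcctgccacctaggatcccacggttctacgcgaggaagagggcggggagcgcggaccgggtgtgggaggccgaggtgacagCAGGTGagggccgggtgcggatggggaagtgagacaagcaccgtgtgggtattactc
ZEB2: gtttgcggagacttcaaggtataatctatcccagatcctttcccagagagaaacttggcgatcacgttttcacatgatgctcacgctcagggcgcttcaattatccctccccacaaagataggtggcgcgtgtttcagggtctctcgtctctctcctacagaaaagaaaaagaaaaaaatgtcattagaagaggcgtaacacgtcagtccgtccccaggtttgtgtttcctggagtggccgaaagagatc
CDH2: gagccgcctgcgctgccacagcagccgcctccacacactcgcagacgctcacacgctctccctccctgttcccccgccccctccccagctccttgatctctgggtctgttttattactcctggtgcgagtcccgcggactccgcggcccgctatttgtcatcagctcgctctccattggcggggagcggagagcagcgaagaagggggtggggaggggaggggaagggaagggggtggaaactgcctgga
VIM: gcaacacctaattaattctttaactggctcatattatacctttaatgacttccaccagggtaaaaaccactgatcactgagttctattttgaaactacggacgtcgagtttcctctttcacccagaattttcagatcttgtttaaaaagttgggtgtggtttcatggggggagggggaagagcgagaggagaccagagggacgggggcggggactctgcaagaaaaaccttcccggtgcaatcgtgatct
The shown ZEB1 window holds 1 such E-box, which begins 57 bases before the start, and 2 of its 7 windows hold at least 1. The ZEB2, CDH2 and VIM windows shown hold 0, which says only that these letters are not in these bases. Of 35116 windows of the same length, 17.5% hold at least 1 copy. Such a match is a description of sequence and not evidence of binding.

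Among the SNAI factors, SNAI2 (Slug), a repressor needed in the neural crest and the melanocyte lineage, was slightly lower in the siPIR pool. Its signal was 4391 and 4711 in siPIR, 5648 and 5790.0 in siCTR, and 5613 and 5495 in NO. Both siPIR arrays were below all 4 control arrays, and the controls lay close together. The difference was -0.33 against siCTR (-0.40 to -0.26) and -0.29 against NO (-0.35 to -0.22), so the level was 1.26-fold and 1.22-fold lower. Between siCTR and NO it was 0.04. Of the bright probe sets on the array, 40.4% differed from siCTR and 52.2% from NO by at least as much. SNAI2 remained below 2-fold under each processing setting run, between -0.38 and -0.28 against siCTR and between -0.34 and -0.19 against NO.

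SNAI1 (Snail), the repressor that acts first in many epithelial-mesenchymal transitions, had 241 and 239 units in siPIR, 263 and 238 in siCTR, and 259 and 265 in NO. The siPIR arrays overlapped those of siCTR and lay below those of NO. Its differences were -0.06 (-0.13 to 0.02) and -0.12 (-0.14 to -0.10). TWIST1, a mesodermal and neural crest regulator, was dim, with 75.4 and 112.9 units in siPIR, 125 and 106 in siCTR, and 107 and 167 in NO. Its arrays overlapped in each comparison, at -0.28 (-0.69 to 0.08) and -0.52 (-1.09 to 0.07).

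ZEB1 and ZEB2 are large zinc finger and homeobox repressors that bind the same E-boxes. The brightest ZEB1 probe set, 212764_at, read 1429.9 and 1429.4 in siPIR, 1858 and 1901 in siCTR, and 1645 and 1686 in NO. It was lower in siPIR than on all 4 control arrays, by a difference of -0.39 against siCTR (-0.41 to -0.38) and -0.22 against NO (-0.24 to -0.20). The controls differed by 0.17 (0.14 to 0.21) on it, so part of the range between siPIR and siCTR is also seen between the controls. Of all bright probe sets, 32.9% differed from siCTR and 62.2% from NO by at least as much as 212764_at. Bright probe set 210875_s_at read 314 and 437 in siPIR, 492 and 379 in siCTR, and 574 and 615 in NO. It overlapped siCTR, at -0.21 (-0.64 to 0.20), and was below NO, at -0.66 (-0.96 to -0.39), but here siCTR too was below NO, by a difference of -0.44.

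Of the dim ZEB1 probe sets, 212758_s_at read 287 and 413 in siPIR, 418 and 368 in siCTR, and 284 and 393 in NO, with overlap throughout and differences of -0.17 and 0.05. The last, 239952_at, was the member probe set called lower against NO. It read 6.1 and 40.8 in siPIR, 16.9 and 99.1 in siCTR, and 93.6 and 53.2 in NO. The difference from NO was -1.45 (-3.11 to -0.34) and that from siCTR -1.14 (-3.18 to 1.05), with overlap in the second. It was measured only through the NO pool, whose mean was 73.4, and without siPIR replicate 1 its difference from NO was -0.77, without siPIR replicate 2 it was -2.78. Its duplicate arrays were thus far apart, and the other 3 probe sets of the gene showed no 2-fold difference.

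For ZEB2, the 2 bright probe sets disagreed. Probe set 228333_at read 1585 and 1686 in siPIR, 1449 and 1131 in siCTR, and 1494 and 1560 in NO. It was above all control arrays, by 0.34 against siCTR (0.13 to 0.57) and 0.10 against NO (0.02 to 0.17). Probe set 203603_s_at read 1103 and 1567 in siPIR, 1208 and 1181 in siCTR, and 1713 and 1882 in NO. It overlapped siCTR (0.16, from -0.13 to 0.41) and was below NO (-0.43, from -0.77 to -0.13), while siCTR was below NO by a difference of -0.59 (-0.67 to -0.50). Only 2.51% of bright probe sets differed as much between siCTR and NO. Among the dim ones, 235593_at was at -0.32 and -0.44 and 233031_at at 0.52 and 0.08, and 233033_at was below the limit on every array (7.1 to 20.0 units). No direction can be given for ZEB2 as a gene.

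Of the cadherins, N-cadherin (CDH2), a calcium-dependent adhesion protein of neural and mesenchymal cells, was the one with bright probe sets. Probe set 203440_at read 3974 and 4185 in siPIR, 3395 and 3343 in siCTR, and 3402 and 3695 in NO. Probe set 203441_s_at read 1612 and 1505 in siPIR, 1285 and 931 in siCTR, and 1070.4 and 1042 in NO. On each of them both siPIR arrays were above all 4 control arrays. The first differed by 0.28 against siCTR (0.23 to 0.32) and 0.20 against NO (0.10 to 0.30), and the second by 0.49 (0.23 to 0.79) and 0.56 (0.49 to 0.63). These are 1.21-fold and 1.15-fold, and 1.41-fold and 1.47-fold, higher levels. At least as large a difference from siCTR was found for 47.9% and 24.0% of bright probe sets. The controls differed by -0.07 and 0.07. Under the settings run the siPIR differences ranged from 0.14 to 0.31 on the first probe set and from 0.28 to 0.74 on the second.

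E-cadherin (CDH1), which joins epithelial cells and anchors melanocytes, was below the limit on both of its probe sets. Probe set 201131_s_at read 27.1 and 23.4 in siPIR, 22.3 and 23.3 in siCTR, and 25.6 and 8.3 in NO, and 201130_s_at read 15.0 and 24.1, 19.4 and 1.7, and 6.0 and 2.5 in the same order of pools. All of these values were under 70.2, so no fold change is given for the gene. P-cadherin (CDH3), a cadherin of basal keratinocytes and hair follicles, was also below it, with 15.3 and 7.4 units in siPIR, 13.1 and 18.4 in siCTR, and 4.1 and 6.7 in NO.

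CDH11, or OB-cadherin, is a cadherin of osteoblasts and other mesenchymal cells, and its 4 probe sets contradicted each other against siCTR. Probe set 239286_at was the measured one, through siCTR alone (pool mean 72.5). It read 1.9 and 54.1 in siPIR, 95.0 and 50.0 in siCTR, and 49.2 and 48.3 in NO, so a single siPIR array carried its low mean. The difference was -1.22 against siCTR (-3.78 to 0.10) and -0.70 against NO (-2.90 to 0.15), with overlap in each. Without siPIR replicate 1 it was -0.39 and 0.14, without siPIR replicate 2 it was -3.42 and -2.89, and with the mean of log2 values in place of the log2 of the mean it was -1.84 and -1.38. Under quantile normalization (-1.30) and median scaling (-1.27) it was called lower than siCTR, as its arrays then no longer overlapped.

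The other CDH11 probe sets had no pool mean above 70.2. Probe set 207172_s_at read 86.5 and 16.8 in siPIR, 32.2 and 9.0 in siCTR, and 46.9 and 57.3 in NO. It overlapped both controls and gave a positive difference from siCTR (1.13, from -0.76 to 2.67). Probe set 207173_x_at read 17.9 and 20.0 in siPIR, 5.4 and 15.4 in siCTR, and 23.7 and 56.5 in NO, between the controls. Probe set 236179_at read 1.6 and 0.8 in siPIR, 5.9 and 6.6 in siCTR, and 4.0 and 2.3 in NO. Against siCTR 2 of the 4 were therefore higher and 2 lower. Against NO the 3 differed by -0.01 (-1.50 to 0.81), -0.90 (-1.41 to -0.20) and -0.37 (-0.60 to -0.14). All 4 therefore had a lower mean in siPIR than in NO, 2 of them without overlap and both of those below the limit. Of all probe sets below the limit on the array, 34.5% differed from NO without overlap, in either direction. The direction against siCTR cannot be settled from these arrays.

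**Figure D3:**
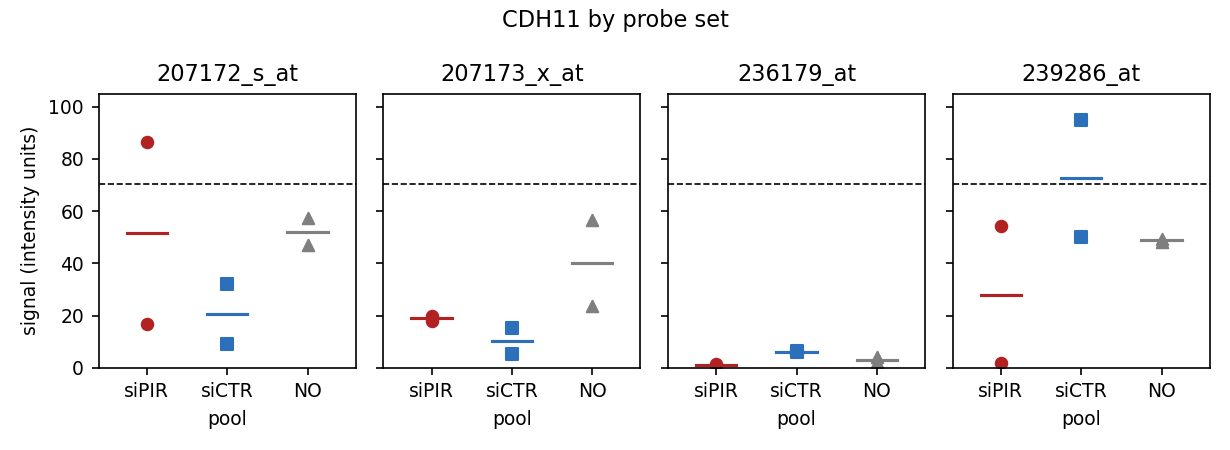
Signal (intensity units) of the 4 CDH11 probe sets on the 6 arrays, with a short line at each pool mean and a dashed line at the limit of 70.2. The siPIR arrays of 207172_s_at (86.5 and 16.8) and of 239286_at (1.9 and 54.1) lie far apart, and in opposite order.

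Vimentin (VIM), the intermediate filament protein of mesenchymal cells, had 44953 and 44641 units in siPIR, 39336 and 39575 in siCTR, and 35426 and 39030.4 in NO on probe set 201426_s_at. The siPIR arrays were above all 4 control arrays, by 0.18 against siCTR (0.17 to 0.19) and 0.27 against NO (0.19 to 0.34), which are 1.14-fold and 1.20-fold higher levels. Under quantile normalization the differences were 0.04 and 0.09, and under all settings run they ranged from 0.04 to 0.19 against siCTR and from 0.09 to 0.36 against NO. Of the bright probe sets, 63.1% and 55.2% differed by at least as much. The second probe set, 1555938_x_at, whose suffix marks probes that can bind other transcripts, was dim, with 246 and 244 in siPIR, 249 and 179 in siCTR, and 250 and 284 in NO. It overlapped siCTR (0.19) and was below NO (-0.12), and does not share the direction of the first against NO.

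With each gene represented by its brightest probe set, 8 of the 10 members were measured and 0 was called in any comparison. The share called among 13071 measured genes was 3.57% higher and 4.1% lower against siCTR, 3.52% and 5.34% against NO, 1.48% and 3.17% against both, and 0.964% and 2.37% for siCTR against NO.

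The related genes were examined in 7 lists, of which 96 genes were measured out of 157 listed. Against both controls 7 were called higher and 3 lower, beside 1.48% and 3.17% of all measured genes. Of 10 measured other EMT transcription factors 0 was called, with median differences of -0.03 and 0.04, beside 0.05 and 0.03 for all measured genes. Here the AP-1 subunit FOSL1 read 2388 and 2288 in siPIR, 1321 and 1522 in siCTR, and 1116 and 1229 in NO. The siPIR arrays were the highest, by 0.72 (0.59 to 0.85) and 0.99, short of the threshold. SOX4, an SRY-box factor, was at 0.59 and 0.51 on its brightest probe set, and its 6 measured probe sets reached 1.22 against siCTR.

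Among 22 measured cofactors and stability regulators of SNAI and ZEB, 1 was higher and 3 were lower than both controls. Of all measured genes, 1.48% were called higher and 3.17% lower, and the list's medians were -0.01 and -0.07. The higher one was CSNK1E, a casein kinase, with 1628 and 1565 units in siPIR, 666 and 577 in siCTR, and 551 and 525 in NO (1.35, from 1.23 to 1.49, and 1.56). The lower ones were the LIM protein gene LIMD1 (-1.55 and -1.93), the histone methyltransferase EZH2 (-1.28 and -1.34) and BTRC, a ubiquitin ligase subunit that recognises phosphorylated SNAI1 (-1.19 and -1.14). LIMD1 and BTRC have other measured probe sets that gave differences up to 0.06 and 0.29 against siCTR. The LIMD1 probe set used ends in _x_at, the suffix of probes that can bind other transcripts, and that of BTRC is dim. Under the settings run, LIMD1 ranged from -1.69 to -0.18 and BTRC from -1.25 to -0.14 against siCTR. EZH2 is represented by a single measured probe set, at 491 and 617 in siPIR, 1289 and 1412 in siCTR, and 1411 and 1412 in NO.

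The list of other classical and type II cadherins also holds some outside these families, CDH26 among them. Its genes were mostly below the limit, with 6 measured of 16 that have a probe set. Against siCTR 0 of the 6 was called, against NO 2 were higher and 1 lower, and the medians were 0.21 and 0.18. Of all measured genes, 3.52% were called higher and 5.34% lower than NO. Among the calls against NO, those of CDH15 (1.35) and CDH6 (-1.28) were shared by siCTR, which was itself called against NO (1.21 and -1.52). CDH19, a cadherin of Schwann cell precursors and the melanocyte lineage, was the bright one. It read 7402 and 7791 in siPIR, 3665 and 4253 in siCTR, and 3711 and 3510 in NO. Both siPIR arrays were above all control arrays, by 0.94 against siCTR (0.80 to 1.09) and 1.07 against NO, so it was called against NO only. Its 3 measured probe sets gave 0.54 to 0.94 against siCTR. CDH26, a cadherin outside the classical families, was dim, at 46.4 and 87.3 in siPIR, 39.8 and 118 in siCTR, and 92.4 and 101 in NO. Its siPIR arrays overlapped those of siCTR (-0.23) and were below those of NO (-0.50).

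Of 14 measured catenins and cadherin adaptors, calls against both controls numbered 2 higher and 0 lower, beside 1.48% and 3.17% of all measured genes. The medians were 0.06 and 0.07. NECTIN2, an immunoglobulin-like adhesion molecule that works beside cadherins, read 1888 and 1367 in siPIR, 763 and 736 in siCTR, and 634 and 630.4 in NO (1.11 and 1.36). Its 4 measured probe sets ranged from -0.49 to 1.11 against siCTR. JUP, or plakoglobin, was dim, measured only through the siPIR pool (mean 119 there), and uneven, at 107 and 132 in siPIR, 84.5 and 25.5 in siCTR, and 14.1 and 65.5 in NO (1.05, from 0.32 to 2.15, and 1.46). Its call against siCTR was lost with 4 times the pseudocount (0.88), without siPIR replicate 2 (0.89) and without siCTR replicate 2 (0.47), and its call against NO without NO replicate 1 (0.82). With 4 times the pseudocount the list had 1 call.

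Epithelial junction and splicing genes were measured for 14 of the 33 with a probe set, and 0 was called against both controls. Their medians were -0.20 and -0.12. The tight junction gene CLDN1 read 589 and 696 in siPIR, 871 and 959.8 in siCTR, and 1576 and 1645 in NO. Its siPIR arrays were the lowest, at -0.51 against siCTR and -1.32 against NO (called), and siCTR was itself lower than NO by a difference of -0.81. A second probe set gave 0.09 against siCTR. ELF3, an epithelial ETS factor, was dim and was called higher than siCTR only (1.64, from 0.51 to 3.25, and 0.45 against NO). It was measured only through the siPIR pool, whose mean was 93.35, and siCTR was itself called lower than NO (-1.19).

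Mesenchymal matrix and motility genes gave 3 calls higher and 0 lower than both controls among 21 measured. Of all measured genes, 1.48% were called higher and 3.17% lower. The list's medians were 0.32 and 0.42, and its median of siCTR minus NO was 0.15. Against siCTR 2 were called lower, AXL (-1.29) and the dim CNN1 (-1.15). The 3 higher than both were the fibronectin-binding integrin subunit ITGA5 (1.66 and 2.55), PLAUR, the receptor of urokinase (1.28 and 1.92), and MMP14, a metalloprotease anchored in the membrane (1.07 and 1.38). ITGA5 read 6702 and 6501 in siPIR, 2128 and 2041 in siCTR, and 1176 and 1071 in NO, so siCTR was also above NO, by 0.89. On the probe sets used, siCTR was also above NO for PLAUR (0.64) and MMP14 (0.31). Other measured probe sets of PLAUR went down to 0.60 against siCTR. Of the 4 measured fibroblast markers 0 was called in any comparison, and 2 were higher and 2 lower than siCTR in mean. The summed signal of all 9 was nonetheless 29069 to 30741 on siPIR arrays, 17888 to 19293 on siCTR arrays and 15880 to 15980 on NO arrays. Their part in the result was not tested. Of the 9, 5 were below the limit in all pools (COL3A1, PDGFRA, PDGFRB, DCN and THY1), COL1A1 was at -0.09 and 0.65, LUM was at -0.46 and -0.61, and the higher sum was carried by COL1A2 (0.64 and 0.91) and FAP (0.92 and 1.00), which the mesenchymal list also holds.

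The 9 measured intermediate filaments and vimentin partners had medians of 0.05 and 0.03. Of them 1 was called higher than both controls and 0 lower, beside 1.48% and 3.17% of all measured genes. It was peripherin (PRPH), a neuronal relative of vimentin, which was dim at 226 and 340 in siPIR, 96.5 and 109 in siCTR, and 129 and 65.3 in NO (1.42, from 1.02 to 1.76, against siCTR, and 0.79 to 2.29 over the array pairs against NO). Markers of keratinocytes, leukocytes and endothelial cells were measured for 2 of 7, 3 of 6 and 2 of 8 genes with a probe set, and 0 of these was called against both controls. KRT10 was at -0.38 and -0.32 and SFN at -0.52 and -0.76, CD14 at 0.88 and 1.56 and ITGAM at -0.35 and -1.29, and PECAM1 at 0.87 and -0.02 and KDR at 0.10 and -0.61.

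**Figure D4:**
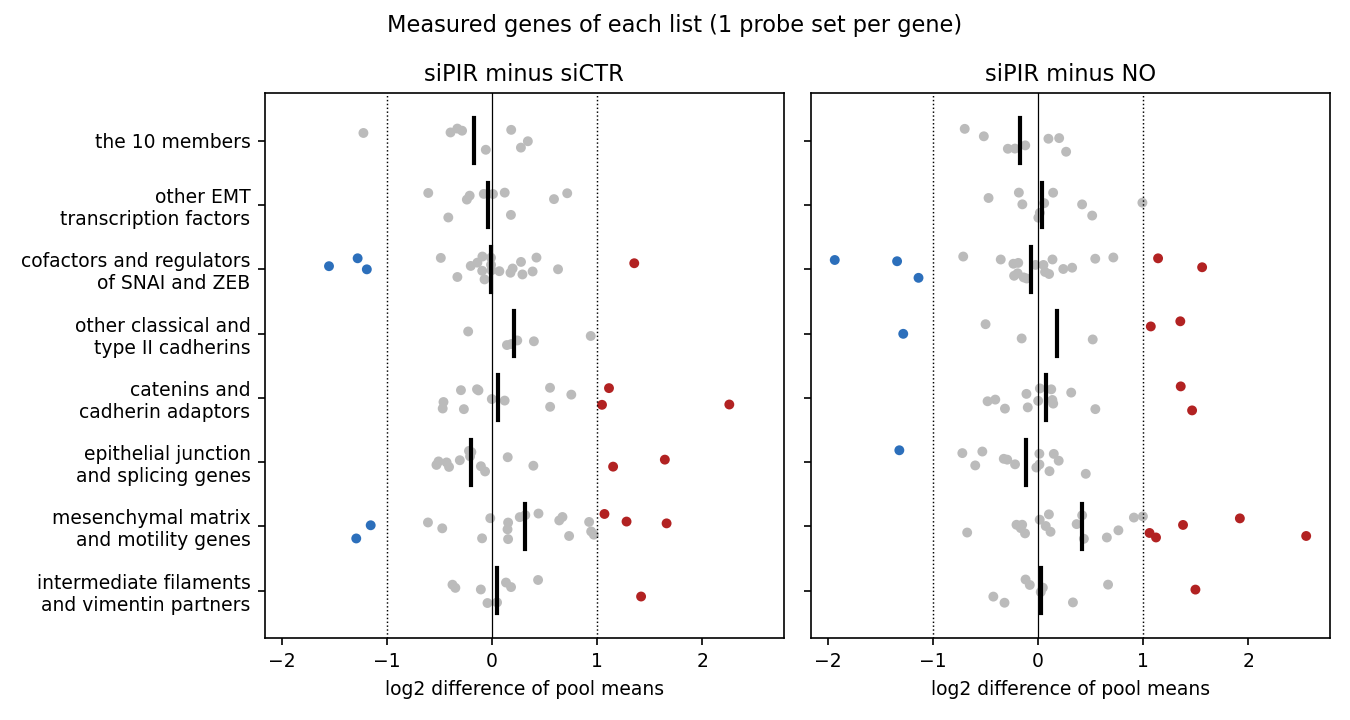
Log2 difference of pool means for measured genes of the 10 members and of the 7 related lists, 1 probe set per gene, siPIR minus siCTR on the left and siPIR minus NO on the right. Red points were called higher, blue points lower, grey points not called, and black bars mark each list's median; the members have grey points only.

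Between the 2 control pools, siCTR against NO, 1.17% of measured probe sets were called higher and 3.15% lower, and 0 of the 16 measured member probe sets was called. The differences of the 8 bright member probe sets ranged from -0.59 to 0.17, with 3 higher and 4 lower without overlap (32.0% and 27.7% of all bright probe sets). These were the largest in size on ZEB2 203603_s_at and ZEB1 210875_s_at, while SNAI2 was at 0.04 and VIM 201426_s_at at 0.08.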

How the data were processed

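The authors deposited probe set intensity on a linear scale, made with GCOS per the submitters' processing notes; no version of it is given in the sources used here. Each array's mean came to 500 once its bottom and top 2% of values were trimmed, so differences in total signal were removed before deposit. Detection calls played no part. Each of the 6 columns carries its sample's accession, and 0 were left over.

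Of 54675 probe sets, 62 were controls and were left out. The platform annotation named a single gene for 41097, more than 1 for 1801, and none for 11777. Symbols were matched through Entrez identifiers to RefSeq (99.9%). The pseudocount of 5.4 is the 10th percentile of all values. The 2 arrays of a pool were averaged on the linear scale. With 1 pool per group no test was fitted. The calling step was tested on simulated data, with changes planted in bright probe sets only and the same noise at all signal levels. It therefore does not cover calls on dim probe sets. Named genes were all member probe sets and, per list, at most 3 higher and 3 lower among genes called against both controls by the largest smaller difference, or failing any call, the 2 with the largest smaller difference. The members and lists were chosen with earlier results of these data known. Alternatives were the pseudocount, the filter, quantile normalization, median scaling, averaging of logs, the choice of probe set and leaving out each array. Python 3.11.15, pandas 2.3.3 and numpy 2.4.6 were used.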

Additional observations from a re-analysis of the deposited data

How the results depend on the processing

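No paired analysis was possible because each group is 1 RNA pool whose numbered arrays are repeat hybridisations of it. The siPIR differences of the bright probe sets of SNAI2, CDH2 and VIM and of ZEB1 212764_at kept their sign under every setting run, at less than 2-fold. Those of ZEB2 228333_at did too, from 0.17 to 0.53 against siCTR and from 0.05 to 0.19 against NO. Of 2355 further values under the alternatives, 2203 stayed within the spread of the arrays or 1.5 times the count, 151 moved and 1 called difference reversed: ELF3 was -0.59 from siCTR without _x_at and _s_at probe sets. Differences that were not called also changed sign under some settings, those of the bright ZEB1 210875_s_at (up to 0.01) and ZEB2 203603_s_at (down to -0.11) against siCTR among them: CDH11 as a gene ranged from -3.42 to 1.99 against siCTR (1.99 without siCTR replicate 1, where another probe set represents it) and from -2.89 to 0.14 against NO, CDH26 from -0.78 to 0.68 against siCTR, and ELF3 from -2.21 to 0.81 against NO. The cause of the changes below was not tested. Signals near the limit and 2 arrays per pool limit the dim members.

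For the member probe sets, 1 was called lower than siCTR under quantile normalization and under median scaling, and 0 lower than NO under either and under the filter at 458.4. With no filter 1 was higher than NO and 2 were lower in siCTR than in NO. As genes, 1 member was lower than siCTR under quantile normalization and under median scaling. With an array left out, the called member probe sets numbered 0 to 1 higher and 0 to 2 lower against siCTR, 0 to 2 lower against NO, 0 to 2 lower against both and 0 to 2 lower for siCTR against NO, and called member genes 0 to 1 lower against siCTR, NO and both. Bright member probe sets without overlap numbered 2 to 4 lower against siCTR and 2 to 4 against both. With a lone array in a pool the overlap condition is easier to meet. The counts over all probe sets with no filter and with an array left out are given below, for comparison with these member counts.

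PIR was at -5.03 and -5.11 with 4 times the pseudocount, and its difference from NO was -5.21 under quantile normalization and -5.07 under median scaling. Called genes of the related lists lower than both controls numbered 5 with no filter, 1 as the mean over probe sets and 0 without _x_at and _s_at probe sets, and those higher 6 to 11 with an array left out. Without _x_at and _s_at probe sets EZH2 was not represented. Under the other settings run it ranged from -1.45 to -1.12 against siCTR and from -1.51 to -1.19 against NO.

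Over all probe sets, calls with no filter were 3714 higher and 3483 lower against siCTR, 3241 and 4336 against NO, 1231 and 1750 against both, and 2282 and 3558 for siCTR against NO. With the filter at 458.4 they were 221 and 525, 321 and 646, 152 and 457, and 5 and 19. With 4 times the pseudocount, siCTR against NO gave 215 and 572. With an array left out they were 1246 to 1965 higher and 1218 to 2291 lower against siCTR. Against NO they were 1063 to 1547 and 1770 to 2466, and against both controls 451 to 805 and 916 to 1356. For siCTR against NO they were 380 to 1271 and 966 to 1673. The unaltered counts, out of 29633 measured probe sets, were 1206 and 1179, 1047 and 1763, 441 and 885, and 347 and 934.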

Other observations

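The noncoding genes examined with the members were dim or below the limit. ZEB1-AS1, the antisense gene at the ZEB1 locus, read 108 and 129 in siPIR, 123 and 108 in siCTR, and 122 and 133 in NO, with overlap throughout and a difference of 0.04 against siCTR. MIR200CHG, the host gene of members of the microRNA family that represses ZEB1 and ZEB2, was below the limit of 70.2 on every array, at 20.1 and 60.0 in siPIR, 53.5 and 7.1 in siCTR, and 24.7 and 25.8 in NO. MIR205HG was also below it, at 1.3 and 33.0 in siPIR, 19.9 and 17.2 in siCTR, and 1.9 and 25.3 in NO. These 3 were chosen after the members' values were seen, and host gene signal does not measure a mature microRNA.

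Among genes named here after their values were seen, AXL, a receptor tyrosine kinase of the mesenchymal list, was called lower than siCTR only. It read 885 and 792 in siPIR, 2032 and 2085 in siCTR, and 1476 and 1207 in NO. The differences were -1.29 and -0.67, and siCTR was above NO by 0.62. Its 2 measured probe sets ranged from -1.29 to -0.76 against siCTR and from -0.67 to 0.35 against NO, so they disagree in sign against NO. ACTA2, smooth muscle actin, read 4432 and 3905 in siPIR, 2197 and 2057 in siCTR, and 2030.2 and 1795 in NO, and was called higher than NO (1.12) and not than siCTR (0.97). Beta-catenin (CTNNB1), which binds the tail of classical cadherins, had probe sets from -1.08 to 0.67 against siCTR, so its direction is not settled. The tight junction scaffold gene TJP1 read 2476 and 2405 in siPIR, 3376 and 3103 in siCTR, and 3745 and 3644 in NO (-0.41 and -0.60).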
